A study of Rattus norvegicus with 31 samples.

Results

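The genes described here are the ligand Gdnf, its receptor subunits Gfra1 and Ret, and Etv5, Bcl6b and Lhx1, which encode transcription factors that Gdnf induces in cultured rodent spermatogonial stem cells. They were taken as the probe sets whose platform annotation names 1 of these 6 genes, which gave 13 of the 31042 probe sets other than controls, and each gene was represented by its probe set of highest mean over the 31 arrays. The arrays measured total RNA of whole testes from LBNF1 rats aged 25 to 27 weeks, and the titles give every testis as irradiated, with 6 Gy to the lower abdomen by the treatment protocol. In 6 arrays the rats had hormone ablation, a GnRH antagonist together with the antiandrogen flutamide, with estradiol added, and the label of this group also names FSH supplementation. In 11 arrays the rats had the ablation alone, and in 14 arrays sham treatment. The descriptions of 10 sham arrays call the testes control and those of the other 4 irradiated. The estradiol arrays were deposited later than the other 25, and no other group has arrays in that deposit, so an effect of the deposit and one of estradiol cannot be told apart. The labels name each array a biological replicate. Of the genes used to check the labels, Insl3, a Leydig cell hormone, differed by -4.49 ± 0.18 (log2, SE) between ablation and sham, and Greb1, an estrogen-induced gene, by 2.97 ± 0.26 between ablation plus estradiol and ablation.

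Gdnf is a secreted growth factor made by Sertoli cells and peritubular myoid cells of the testis. It binds Gfra1, a co-receptor anchored in the membrane of undifferentiated spermatogonia, and the complex activates Ret, a receptor tyrosine kinase that signals through Src family kinases, phosphoinositide 3-kinase and the Ras pathway. This signal maintains self-renewal of spermatogonial stem cells in rodents. In the irradiated rat testis spermatogonia remain but fail to differentiate, and suppression of gonadotropins and testosterone lets differentiation start again.

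RefSeq, in assembly GRCr8, listed promoter windows, from 250 bases before to 50 after a start, for 5 of the 6 genes, all but Bcl6b. For Gdnf, Ret and Lhx1 that start is the outer end of the annotated gene, while the windows of Gfra1 and Etv5 were built on a start inside it. The windows of the ligand and of the receptor subunits are shown because Ret and Gfra1 were the members called in the comparisons and Gdnf is their ligand. They run 5′ to 3′ on the strand of the gene, and capitals mark matches to the motifs searched.
Gdnf, chr2:58621077-58621376, plus strand: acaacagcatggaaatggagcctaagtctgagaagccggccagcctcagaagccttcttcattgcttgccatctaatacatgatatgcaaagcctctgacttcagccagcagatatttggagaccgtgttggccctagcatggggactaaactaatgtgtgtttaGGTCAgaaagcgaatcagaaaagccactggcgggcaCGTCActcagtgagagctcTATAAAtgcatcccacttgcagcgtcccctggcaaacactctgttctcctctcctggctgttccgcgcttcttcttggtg
Gfra1, chr1:267555762-267556061, minus strand: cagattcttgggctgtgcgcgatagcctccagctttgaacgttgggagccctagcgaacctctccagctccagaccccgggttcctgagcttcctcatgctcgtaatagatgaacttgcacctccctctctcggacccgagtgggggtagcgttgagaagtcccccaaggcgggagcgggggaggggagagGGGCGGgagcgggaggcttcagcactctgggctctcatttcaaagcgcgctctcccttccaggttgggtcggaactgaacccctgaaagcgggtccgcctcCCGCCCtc
Ret, chr4:153040507-153040806, minus strand: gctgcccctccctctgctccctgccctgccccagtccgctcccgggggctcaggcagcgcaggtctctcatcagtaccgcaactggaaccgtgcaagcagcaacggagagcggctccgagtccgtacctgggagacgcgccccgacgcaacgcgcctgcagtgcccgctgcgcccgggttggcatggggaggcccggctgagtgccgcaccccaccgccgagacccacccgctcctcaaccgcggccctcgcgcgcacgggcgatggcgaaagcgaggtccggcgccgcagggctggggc
On both strands the search covered TGACG (half-site of the cAMP response element), GGTCA (estrogen receptor half-site), the full estrogen response element, 2 such half-sites facing each other and so overlapping that motif, CCGGAA (core of ETS factors), TATAAA and GGGCGG (GC box). The Gdnf window held TATAAA at position -30 from that start, a reverse match to TGACG at -49 and GGTCA at -85. Of 27457 rat promoters of the same length, 14.3% held TATAAA, 22.0% TGACG and 40.2% GGTCA. The Gfra1 window held the GC box 2 times, a motif that 34.9% of all windows held, and none of the other motifs. The Ret window, 74.0% G and C, held none of these letters. CCGGAA was in 15.8% of all windows and the full estrogen response element in 0.0255%, and none of the 5 member windows held either. These matches describe the letters of the windows and not binding.

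Signals are given as deposited and read as log2. The 40th percentile of each array, between -1.93 and -1.75, served as the filter level: a probe set was tested where it exceeded that level in at least 6 arrays. Of the 13 probe sets 10 passed, and of the 6 genes all but Gdnf had their main probe set among them. In these whole-testis RNAs a change in the number of cells of a type and a change in RNA per cell cannot be told apart.

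**Figure D1:**
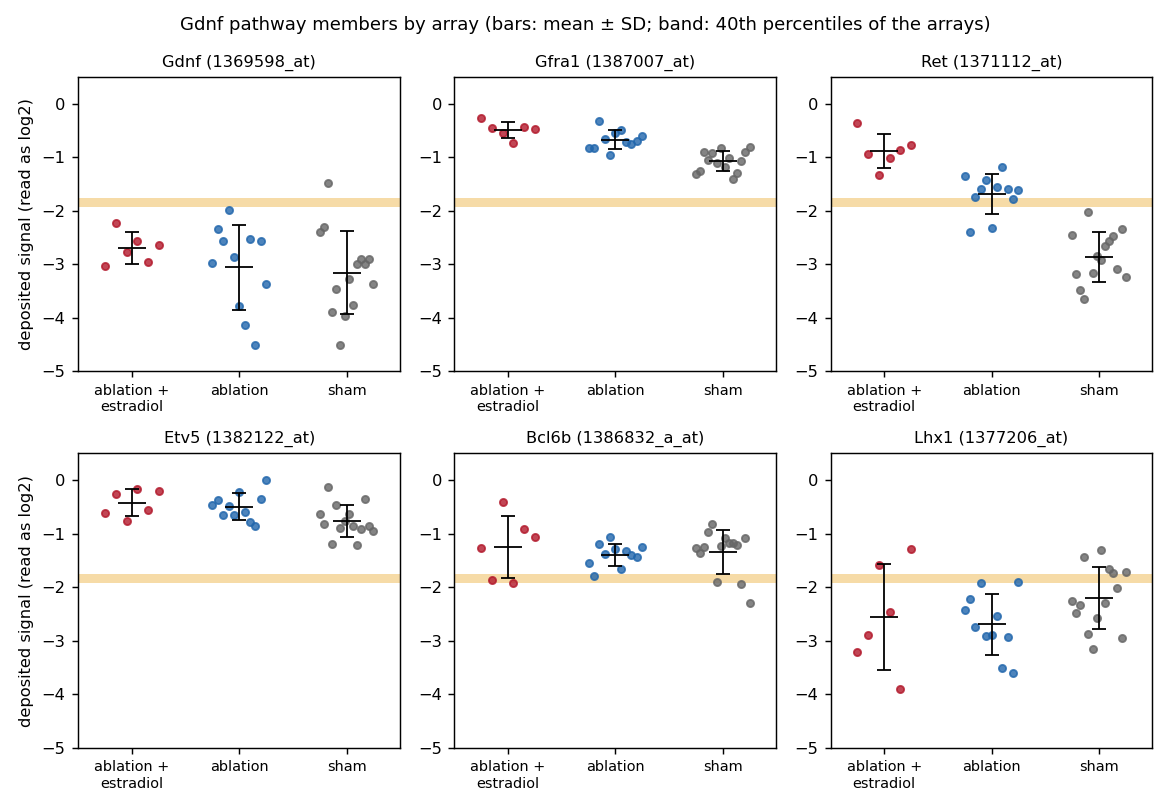
Deposited signal (read as log2) of the main probe set of each member in every array, by group, with black bars for mean ± SD and an orange band for the 40th percentiles of the arrays. Ret lies above the 40th percentile of the same array in 6 of 6 ablation plus estradiol arrays, 8 of 11 ablation arrays and 0 of 14 sham arrays, while Gdnf does so in 1 array.

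Gdnf, the ligand, had a low signal, with median percentiles within the array of 26.5 with ablation plus estradiol, 24.3 with ablation and 21.4 with sham treatment. Its signal was -3.03, -2.70 and -2.22 (lowest, median and highest of 6 arrays) with ablation plus estradiol, -4.51, -2.87 and -1.98 (11 arrays) with ablation, and -4.51, -3.14 and -1.48 (14 arrays) with sham treatment. The 3 groups overlapped, and 0 of 6, 0 of 11 and 1 of 14 arrays (7.14%) were above the filter level. With so few arrays above that level Gdnf was not part of the main test. In a fit of all probe sets without the filter, in which limma called 12.6% for ablation against sham, the log2 difference for Gdnf was 0.10 ± 0.29 (SE, 11 against 14 arrays, adjusted p = 0.88, 95% interval -0.49 to 0.69). In the same fit it was 0.36 ± 0.37 for ablation plus estradiol against ablation (adjusted p = 0.741, -0.38 to 1.10), a comparison in which 3.66% were called. Against sham the difference with ablation plus estradiol was 0.46 ± 0.35 (adjusted p = 0.523, -0.25 to 1.18), with 9.46% called. With values raised to the filter level, the 3 differences were -0.01, -0.05 and -0.05. As all values but 1 were raised, these numbers compare the filter levels of the arrays and not Gdnf. A change of Gdnf within these intervals was not detectable with a signal this low.

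Gfra1, the co-receptor that binds Gdnf, was higher in both ablation groups than in sham testes. Its main probe set had signals of -0.74, -0.46 and -0.27 (lowest, median, highest) with ablation plus estradiol, -0.96, -0.70 and -0.33 with ablation, and -1.41, -1.05 and -0.81 with sham treatment. All 31 arrays were above the filter level. All 6 ablation plus estradiol arrays lay above every sham array, and 8 of 11 ablation arrays did so. The ablation arrays averaged -0.67 ± 0.18 and the sham arrays -1.07 ± 0.19 (SD), which made Gfra1 1.32-fold higher (log2 difference 0.40 ± 0.09, SE, limma adjusted p = 0.000661). Against the 4 irradiated-described sham arrays alone the difference was 0.35 and the call was lost (adjusted p = 0.0765). With ablation plus estradiol the mean was -0.48 ± 0.15 (SD, n = 6), 1.50-fold above sham (log2 difference 0.59 ± 0.10, limma adjusted p = 6.1e-05). Against ablation alone the difference was 0.19 ± 0.11 (limma adjusted p = 0.401, 95% interval -0.03 to 0.40) and did not pass.

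The other Gfra1 probe set, 1367954_at, was lower in signal and more scattered, and 6 of 6, 7 of 11 and 7 of 14 arrays were above the filter level in the same order of groups. Its log2 differences were 0.28 ± 0.28 for ablation against sham (adjusted p = 0.543) and 0.70 ± 0.34 for ablation plus estradiol against sham (adjusted p = 0.18), neither of which passed limma's test. An ablation array at -4.46 was its lowest value in the series, against -1.94 for the next ablation array.

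Ret, the kinase subunit that carries the signal into the cell, had the widest span between groups among the members. Its main probe set 1371112_at had signals of -1.32, -0.90 and -0.35 (lowest, median, highest) with ablation plus estradiol, -2.40, -1.59 and -1.19 with ablation, and -3.64, -2.89 and -2.03 with sham treatment. It exceeded the filter level in 6 of 6 ablation plus estradiol arrays, in 8 of 11 ablation arrays (72.7%) and in 0 of 14 sham arrays. All 6 ablation plus estradiol arrays lay above every sham array. Between ablation and sham 9 of 11 ablation arrays lay above the highest sham array, and between ablation plus estradiol and ablation 5 of 6 lay above the highest ablation array.

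Ret passed the filter only through both ablation groups, so a difference from sham was built into its selection, and with all sham values below the filter level the size of that difference is not well measured. With ablation Ret averaged -1.68 ± 0.38 and with sham treatment -2.86 ± 0.46 (SD). The log2 difference was 0.26 with values raised to the filter level and 1.18 ± 0.18 (SE) as deposited, with a limma adjusted p of 4.58e-06 among the filtered probe sets and 5.6e-06 in the fit without the filter. With ablation plus estradiol Ret averaged -0.88 ± 0.32 (SD, n = 6). Against sham its log2 difference was 0.97 with values raised to the filter level and 1.98 ± 0.22 as deposited (limma adjusted p = 6.99e-09, and 8.89e-09 without the filter). Against ablation alone it was 0.71 with values raised to the filter level and 0.81 ± 0.22 as deposited (limma adjusted p = 0.0237, and 0.0297 without the filter). These 3 comparisons share their groups and are not independent of each other.

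Whether the Ret difference between ablation plus estradiol and ablation was called depended on which arrays were used. With 1 array left out at a time the difference ranged from 0.70 to 0.89. Without estradiol array 1, which held the highest Ret value of the series, it was 0.70 (adjusted p = 0.0887), without estradiol array 5 it was 0.80 (adjusted p = 0.0558) and without estradiol array 6 it was 0.78 (adjusted p = 0.0618). Without the 12 arrays whose mean over spermatocyte and spermatid genes exceeded the filter level it was 0.94, with adjusted p = 0.15. Those 12 arrays were 7 of the ablation and 5 of the sham group.

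Ret varied between arrays of 1 group along with many other genes. The score of each array on the first principal component of the deviations from the group means, which held 14.6% of that variance, was set against the deviations of each member in a relation chosen after the values were seen. A component has no sign of its own, and the sign was chosen so that r is positive for Ret, whose probe set is also 1 of the 21269 in the component. For Ret Pearson's r was 0.74 over 31 arrays (permutation p = 1e-05, the smallest that 100000 permutations give, and adjusted p = 6e-05 over the 6 members) and Spearman's rho was 0.69 (permutation p = 4e-05, adjusted p = 0.00024). Within the groups r was 0.80 with ablation plus estradiol, 0.54 with ablation and 0.81 with sham treatment, and without the 2 arrays of most extreme score it was 0.68. The other 5 members had r between -0.41 (Lhx1, adjusted p = 0.0666) and 0.15 (Bcl6b, permutation adjusted p = 0.852). A fit with such a component as a covariate was added later. The component was built from 5824 probe sets with an adjusted p above 0.5 in every comparison, so it could take up little of a difference between groups. In this fit the Ret difference was 0.76 for ablation plus estradiol against ablation (limma adjusted p = 0.00512), 1.95 for ablation plus estradiol against sham and 1.20 for ablation against sham. The fit is therefore no check of the Ret differences.

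**Figure D2:**
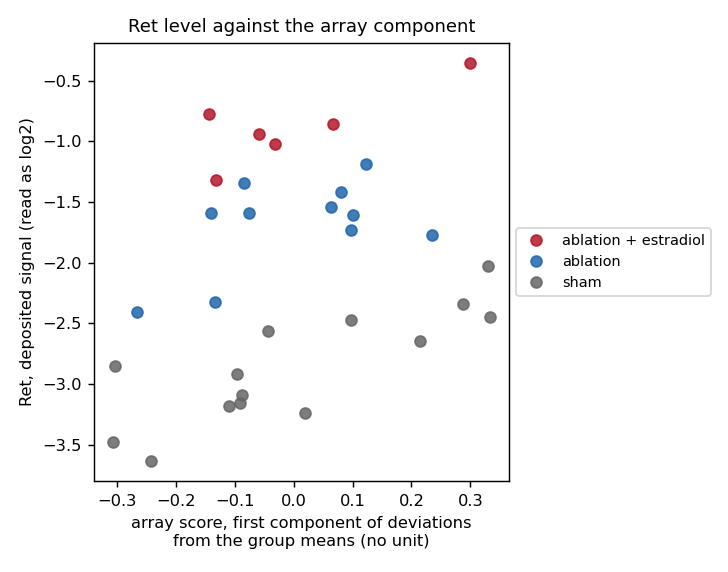
Ret signal (read as log2, vertical axis) of each array against the array score on the first component of deviations from the group means (no unit, horizontal axis), coloured by group. Within each group Ret is higher in arrays of higher score, with r of 0.80, 0.54 and 0.81 for ablation plus estradiol, ablation and sham.

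Further Ret probe sets were at or below the filter level nearly everywhere. Probe set 1370989_at exceeded it in 1 of 31 arrays and 1388208_a_at in 0 of 31, so neither was part of the main test. In the fit without the filter 1370989_at differed by 1.61 ± 0.48 between ablation and sham (limma adjusted p = 0.0229) and by -0.11 ± 0.61 between ablation plus estradiol and ablation (adjusted p = 0.966). For 1388208_a_at the same differences were 0.91 ± 0.41 (adjusted p = 0.151) and 0.46 ± 0.51 (adjusted p = 0.769). With values raised to the filter level all 6 differences of these probe sets were between -0.05 and 0.02. As nearly all values were raised, these numbers compare the filter levels of the arrays and not Ret.

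**Figure D3:**
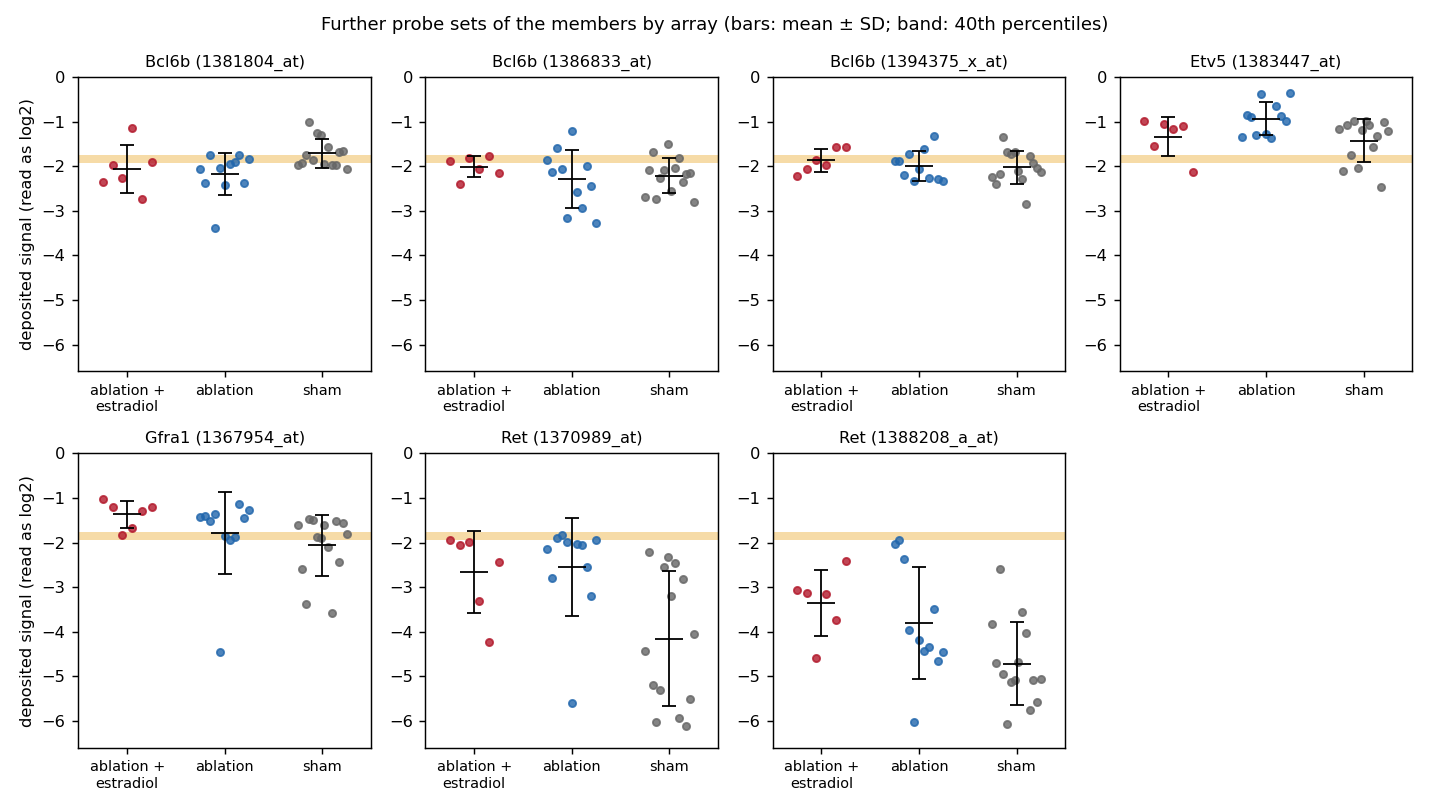
Deposited signal (read as log2) of the 7 further probe sets of the members in every array, by group, with mean ± SD and a band for the 40th percentiles of the arrays. The further Ret probe sets exceed the 40th percentile of the same array in 1 and in 0 of 31 arrays, and the second Etv5 probe set averages -1.33, -0.93 and -1.42 in ablation plus estradiol, ablation and sham.

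Etv5 encodes an ETS family transcription factor that acts downstream of Gdnf in spermatogonial stem cells and is also made by Sertoli cells. Its main probe set had signals of -0.76, -0.40 and -0.16 (lowest, median, highest) with ablation plus estradiol, -0.86, -0.48 and 0.01 with ablation, and -1.21, -0.84 and -0.13 with sham treatment, and all 31 arrays were above the filter level. The groups overlapped. The log2 difference was 0.27 ± 0.11 for ablation against sham (limma adjusted p = 0.0854, 95% interval 0.04 to 0.50), 0.34 ± 0.14 for ablation plus estradiol against sham (adjusted p = 0.0913) and 0.07 ± 0.14 for ablation plus estradiol against ablation (adjusted p = 0.863). None passed, although without sham array 3 the differences from sham were 0.32 (adjusted p = 0.0285) and 0.39 (adjusted p = 0.0327). The other probe set, 1383447_at, was called for ablation against sham, at 0.49 ± 0.17 (limma adjusted p = 0.0369). For ablation plus estradiol against ablation it pointed the other way, at -0.40 ± 0.21 (adjusted p = 0.352).

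Bcl6b encodes a transcriptional repressor needed for spermatogonial stem cell maintenance in mice. Its main probe set had signals of -1.93, -1.17 and -0.41 (lowest, median, highest) with ablation plus estradiol, -1.80, -1.38 and -1.07 with ablation, and -2.30, -1.22 and -0.83 with sham treatment. The groups overlapped throughout, and 5 of 6, 11 of 11 and 11 of 14 arrays were above the filter level. The log2 differences were -0.05 ± 0.16 for ablation against sham (limma adjusted p = 0.859, 95% interval -0.37 to 0.26), 0.15 ± 0.20 for ablation plus estradiol against ablation and 0.10 ± 0.19 for ablation plus estradiol against sham. The other 3 Bcl6b probe sets did not pass either. The nearest was 1381804_at, at -0.46 ± 0.18 for ablation against sham (adjusted p = 0.0669).

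Lhx1 encodes a LIM homeobox transcription factor. Its 1 probe set had signals of -3.90, -2.68 and -1.28 (lowest, median, highest) with ablation plus estradiol, -3.60, -2.75 and -1.91 with ablation, and -3.16, -2.27 and -1.31 with sham treatment. Only 2 of 6, 0 of 11 and 5 of 14 arrays were above the filter level. The log2 differences were -0.49 ± 0.27 for ablation against sham (limma adjusted p = 0.217), 0.14 ± 0.34 for ablation plus estradiol against ablation (adjusted p = 0.894) and -0.36 ± 0.33 for ablation plus estradiol against sham (adjusted p = 0.553). With values raised to the filter level they were -0.10, 0.11 and 0.01.

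Among the 5 tested main probe sets, 2 were called higher and 0 lower for ablation against sham, where limma called 19.4% of all 21269 tested probe sets, 9.15% as higher and 10.3% as lower. Ret is 1 of these calls in every comparison and was tested only through the groups where it is high, so the counts account for the members and nothing is read from them. For ablation plus estradiol against ablation 1 was higher and 0 lower, against 5.52% called in all, 0.592% as higher and 4.92% as lower. For ablation plus estradiol against sham 2 were higher and 0 lower, against 14.5% in all, 4.15% as higher and 10.4% as lower. In that comparison the groups did not overlap for Ret and Gfra1, which was so for 0.649% of tested probe sets in the higher and 2.15% in the lower direction. In the other comparisons no member had groups without overlap, against 0.371% (higher) and 1.4% (lower) of probe sets for ablation against sham and 0.193% (higher) and 1.35% (lower) for ablation plus estradiol against ablation. Over all tested probe sets the median log2 difference was 0.02, -0.03 and -0.03 in the 3 comparisons in this order.

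**Figure D4:**
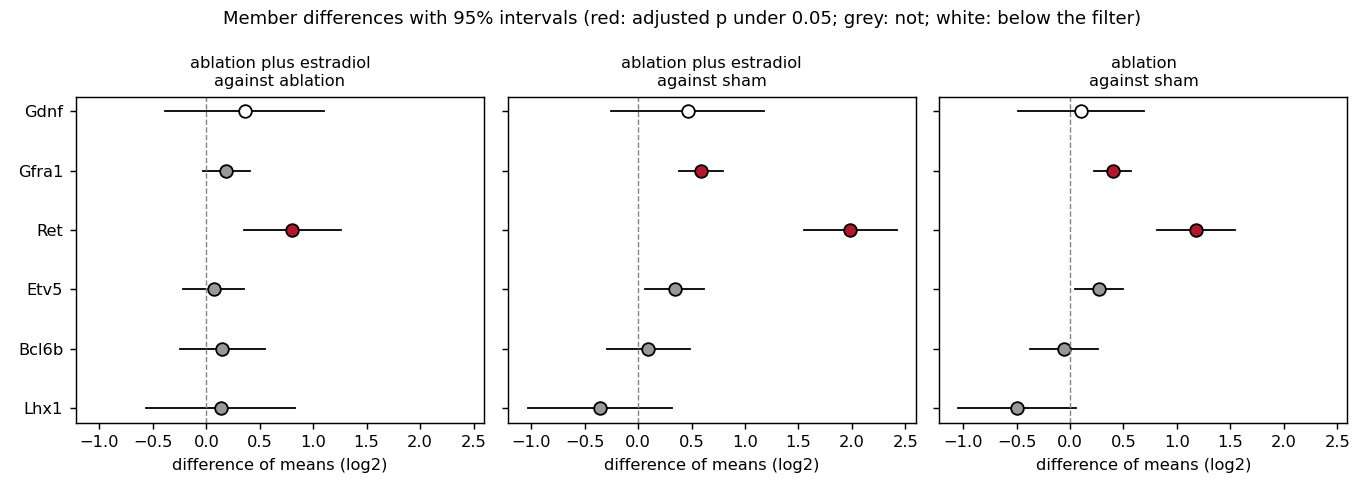
Difference of group means (log2) of the main probe set of each member in the 3 comparisons, with 95% intervals, in red where the adjusted p is under 0.05, grey where it is not and white for Gdnf, which is below the filter level and shown from the fit without the filter. Ret is red in all 3 panels, at 0.81, 1.98 and 1.18, and Gfra1 in the comparisons with sham, at 0.59 and 0.40.

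No pair of members passed a test of varying together within groups. Among all 15 pairs of main probe sets Pearson's r of the deviations from the group means ran from -0.27 to 0.36 over 31 arrays, and 0 pairs passed the permutation test after adjustment (lowest adjusted p = 0.711 for r and 0.677 for Spearman's rho). Gfra1 and Ret, the subunits of 1 receptor, had r = -0.07 and rho = -0.05 (permutation p = 0.706 and 0.777), and r = -0.02 without the 2 arrays of most extreme Gfra1. The highest pair was Gdnf and Etv5, with r = 0.36 and rho = 0.22 (permutation p = 0.0491 and 0.241), which dropped to r = 0.10 without the 2 arrays of most extreme Gdnf.

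The genes whose deviations were most like those of Ret over the 31 arrays were Sp2 (r = 0.81), Sf1 (0.81), Dctn4 (0.80), Atrx (0.80) and Nars1 (0.80), out of 11273 genes. None of these 5 had group means in the order of those of Ret: Sp2 averaged -1.22, -1.39 and -1.36 with ablation plus estradiol, ablation and sham, and Atrx -0.34, -0.48 and -0.20. Most like Gfra1 were Taf7l (r = 0.59), Pde4d (0.58), Miga1 (0.57), Mettl8 (0.55) and Gpx2 (0.53). Of these Taf7l, Pde4d and Miga1 had group means in the order of Gfra1, at -0.86, -1.28 and -2.05 for Taf7l and -0.72, -0.81 and -0.88 for Pde4d with ablation plus estradiol, ablation and sham. Mettl8 (-0.75, -0.88 and -0.83) and Gpx2 (-1.81, -1.67 and -2.01) did not. The leading genes were Dcaf6 for Gdnf (r = 0.62), Farp2 for Etv5 (0.63), Wdr70 for Bcl6b (0.68) and Dusp2 for Lhx1 (0.67). All these arrays share tissue and platform, and whether they share a scaling is not given in the sources used here.

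The other genes of the family and of the pathway were taken from lists. Among the other ligands and receptors of the Gdnf family 0 of 5 genes tested (Nrtn, Pspn, Gfra2, Gfra3 and Gfra4, named after their values were seen) were called in any of the 3 comparisons, and Gdf15 and Ncam1 were below the filter. Gfra2, the co-receptor of neurturin, differed by 0.10 ± 0.10 between ablation and sham (limma adjusted p = 0.578) and by -0.24 ± 0.13 between ablation plus estradiol and ablation (adjusted p = 0.361). Among adaptors, kinases and inhibitors downstream of Ret, 4 of 24 were higher and 1 lower with ablation against sham (median 0.08, against 9.23% higher and 12.8% lower of 11387 genes). For ablation plus estradiol against ablation 0 were called, against 0.73% higher and 2.73% lower of all genes. For ablation plus estradiol against sham 2 were higher and 1 lower, against 5.28% and 11.9%. With so few genes in either list, nothing is read from these counts.

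Spry1, a feedback inhibitor of receptor tyrosine kinases, was 1.27-fold higher with ablation than with sham (log2 0.34 ± 0.10, limma adjusted p = 0.0154) and 1.54-fold higher with ablation plus estradiol than with sham (0.63 ± 0.12, adjusted p = 0.000306). Gab1, a docking protein of these kinases, was 1.24-fold and Pik3ca, a catalytic subunit of phosphoinositide 3-kinase, 1.32-fold higher with ablation than with sham. The regulatory subunit Pik3r1 was lower, at -1.07 ± 0.27 (adjusted p = 0.00417), or -0.51 with values raised to the filter level. Dok1, an adaptor that restrains kinase signals, was lower with ablation plus estradiol than with sham (-0.53 ± 0.13, adjusted p = 0.00364).

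Further genes that Gdnf raises in cultured spermatogonia had 2 higher and 1 lower of 11 with ablation against sham (median 0.15), 0 called for ablation plus estradiol against ablation (median 0.14) and 2 higher and 1 lower for ablation plus estradiol against sham (median 0.36). Over all genes the shares higher and lower were 9.23% and 12.8%, 0.73% and 2.73%, and 5.28% and 11.9% in these comparisons. Mycn, a growth regulator, averaged 0.35 ± 0.31, 0.01 ± 0.27 and -0.62 ± 0.21 (SD, 6, 11 and 14 arrays) with ablation plus estradiol, ablation and sham. It was 1.96-fold above sham with ablation plus estradiol (limma adjusted p = 2.56e-07) and 1.55-fold above sham with ablation (adjusted p = 1.6e-05), while the difference of 0.34 between these groups had an adjusted p of 0.14. Pou3f1, a transcription factor of stem cells, was 1.41-fold above sham with ablation plus estradiol and 1.28-fold with ablation. Hhex, a homeobox factor, was lower in both comparisons with sham, at -0.35 with ablation plus estradiol and -0.36 with ablation.

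Undifferentiated spermatogonia are the cells that carry Gfra1 and Ret, so their other markers are given beside them. Of 9 tested genes 4 were higher and 0 lower with ablation against sham (median 0.09), 1 and 0 for ablation plus estradiol against ablation (median 0.44), and 4 and 0 for ablation plus estradiol against sham (median 0.37), where all genes had 9.23% higher and 12.8% lower, 0.73% and 2.73%, and 5.28% and 11.9%. Of the 23 markers listed 14 had a named probe set, and Nanos3, Lin28a, Cdh1, Eomes and Neurog3 were below the filter. The log2 of the summed signal of the 9 genes ran from 3.93 to 4.54 with ablation plus estradiol, 3.93 to 4.42 with ablation and 3.70 to 4.17 with sham treatment. Sox3, a transcription factor of these cells, passed in all 3 comparisons. It was 1.53-fold higher with ablation plus estradiol than with ablation (log2 0.61 ± 0.16, limma adjusted p = 0.013) and 1.78-fold higher with ablation than with sham. Epcam, a surface protein of spermatogonia, was 2.01-fold higher with ablation than with sham, and differed by -0.06 ± 0.17 between ablation plus estradiol and ablation (adjusted p = 0.915). The remaining markers called in the comparisons with sham are not named here. The part of spermatogonial RNA in the difference of Ret was not tested.

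Markers of differentiating spermatogonia had 1 higher and 1 lower of 5 with ablation against sham, 1 higher for ablation plus estradiol against ablation and 3 higher for ablation plus estradiol against sham, so few genes that 1 call is a larger share than the 9.23%, 0.73% and 5.28% of all genes called higher or the 12.8% called lower with ablation. Dmrt1, which governs the switch from mitosis to meiosis in mice and is also made by Sertoli cells, was 1.57-fold higher with ablation plus estradiol than with ablation (log2 0.65 ± 0.14, limma adjusted p = 0.0019). With ablation against sham the list had a median of 0.28. Sycp3, a protein of the meiotic chromosome axis, was higher by 0.97 ± 0.29 (limma adjusted p = 0.0146, and 0.41 with values raised to the filter level). Kit, the receptor that marks differentiating spermatogonia, was lower, at -0.76 ± 0.26 (limma adjusted p = 0.0387). Its SD was 0.85 with sham treatment and 0.25 with ablation, and which cells carried the Kit signal was not tested. With ablation plus estradiol against sham Dmrt1, Sycp3 (1.10 ± 0.35, adjusted p = 0.0283) and Sohlh1, a transcription factor of differentiation (1.69 ± 0.44, adjusted p = 0.0058, and 0.32 with values raised to the filter level), were higher. Sohlh1 and Sycp3 averaged -3.46 ± 0.57 and -2.11 ± 1.08 (SD) with sham treatment, below the filter level. Part of their difference from sham may thus be built into the choice of tested genes, and its size is not well measured. Nothing is read from the count of 3. Spermatocyte and spermatid genes varied between arrays of 1 group, with the log2 of the summed signal of 6 genes at 0.74 to 1.08 with ablation plus estradiol, 0.49 to 4.60 with ablation and 0.43 to 6.29 with sham treatment. Prm1, which packs spermatid DNA, differed by -4.59 ± 1.33 between ablation plus estradiol and ablation (adjusted p = 0.0309), and Tnp1, another spermatid gene, by -3.15 ± 1.35 (adjusted p = 0.206). With values raised to the filter level these differences were -2.06 and -0.58.

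Of the genes listed as regulators of Gdnf in rodents, 2 of 10 tested were higher and 0 lower with ablation against sham. The counts were 1 and 0 for ablation plus estradiol against ablation, and 2 and 0 for ablation plus estradiol against sham. Of all genes 9.23%, 0.73% and 5.28% were higher and 12.8%, 2.73% and 11.9% lower in these comparisons. Hes1, a Notch target that represses Gdnf in mouse Sertoli cells, averaged 1.68 ± 0.19, 1.18 ± 0.21 and 1.15 ± 0.26 (SD, 6, 11 and 14 arrays) with ablation plus estradiol, ablation and sham. It was 1.41-fold higher with ablation plus estradiol than with ablation (limma adjusted p = 0.00588) and did not pass for ablation against sham (0.02 ± 0.09, adjusted p = 0.894). Gata4, a transcription factor of Sertoli and Leydig cells, was 1.33-fold above sham with ablation plus estradiol and 1.24-fold with ablation. Creb1, which carries cAMP signals to genes, was 1.32-fold higher with ablation than with sham (adjusted p = 0.0448). Esr1 and Esr2, the estrogen receptors, were below the filter, and Fshr had no named probe set here.

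Sertoli cell markers, listed because these cells make Gdnf and Etv5, had 6 of 13 higher and 1 lower with ablation against sham, 0 called for ablation plus estradiol against ablation, and 6 higher and 1 lower for ablation plus estradiol against sham. The counts of these cell types and of the niche factors stand against 9.23% higher and 12.8% lower of all genes for ablation against sham, 0.73% and 2.73% for ablation plus estradiol against ablation, and 5.28% and 11.9% for ablation plus estradiol against sham. The log2 of their summed signal ran from 7.07 to 8.03 with ablation plus estradiol, 7.75 to 8.18 with ablation and 6.85 to 8.11 with sham treatment. Peritubular myoid markers had 0 higher and 4 lower of 6 in both comparisons with sham. Of the other cell types of the testis, Leydig cell markers had 2 higher and 5 lower of 8, macrophage markers 1 higher and 6 lower of 7 and endothelial markers 0 higher and 2 lower of 5 with ablation against sham, and Leydig cell markers had 0 higher and 3 lower with ablation plus estradiol against ablation. The part of these cell types in the differences of Ret and Gfra1 was not tested. Other factors that somatic cells give to spermatogonia, with their receptors, were split, with 4 higher and 4 lower of 18 for ablation against sham. Igf1, a growth factor of Leydig and Sertoli cells, was 6.36-fold lower with ablation than with sham (log2 -2.67 ± 0.10), Cxcl12, a chemokine of the niche, was 2.21-fold lower with ablation than with sham, and Kitlg, the ligand of Kit, 1.38-fold higher. Fgfr3, a receptor for fibroblast growth factors in spermatogonia, was higher with ablation than with sham (0.41 ± 0.09) and lower with ablation plus estradiol than with ablation (-0.39 ± 0.11, limma adjusted p = 0.0281). Igf1 was higher with ablation plus estradiol than with ablation (0.51 ± 0.13, adjusted p = 0.0134) and still lower than with sham, at -2.16 ± 0.13. Neurons and Schwann cells can also carry Ret and Gfra1. Of their markers S100b and Th were tested, while Sox10, Ncam1 and Prph were below the filter, and S100b was lower with ablation than with sham (-0.50 ± 0.08) and higher with ablation plus estradiol than with ablation (0.34 ± 0.10, adjusted p = 0.0383).

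**Figure D5:**
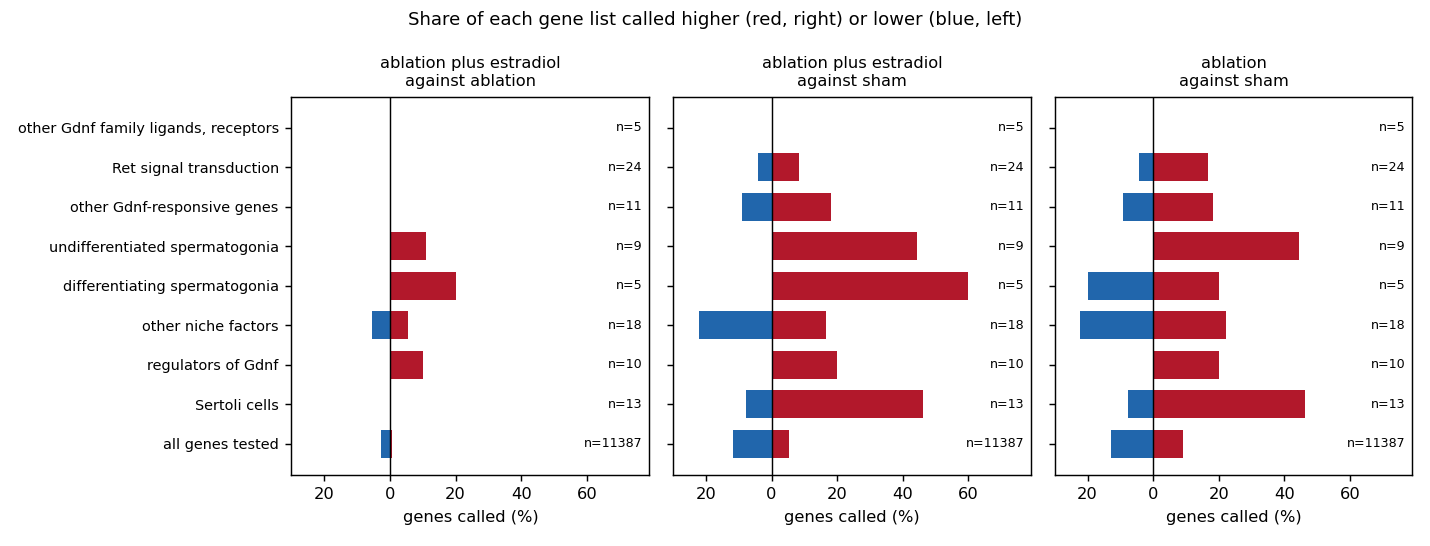
Share of the tested genes of 8 of the lists (in percent, number tested at the right) called higher (red, to the right) or lower (blue, to the left) in the 3 comparisons, with all 11387 genes as the last row. Undifferentiated spermatogonia have 4 of 9 genes higher in both comparisons with sham, and the other Gdnf family ligands and receptors have 0 of 5 called in every panel.

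Between sham arrays described as irradiated and those described as control none of the tested member probe sets was called, with limma calling 0 of 21269 probe sets after adjustment and 513 at an unadjusted p under 0.05. For the main probe sets the differences were 0.10 ± 0.38 for Ret, 0.08 ± 0.15 for Gfra1, -0.01 ± 0.18 for Etv5, -0.42 ± 0.22 for Bcl6b and 0.13 ± 0.35 for Lhx1 (SE, 4 against 10 arrays).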

How the data were processed

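Total RNA of whole testes was hybridised to 1-colour Affymetrix rat arrays, 31 in all. The authors made the deposited values, read here as log2, with MAS5 on a log scale, per the submitters' processing notes. The log base, the scaling and the version are not given in the sources used here. Control probe sets were left out. Gene names came from the platform annotation, with symbols updated through RefSeq, and the probe set of highest mean stood for a gene. Probe sets above the 40th percentile of their array in at least 6 arrays were tested with limma 3.58.1 in R 4.3.3 (1 mean per group, trended eBayes), and p-values were adjusted by Benjamini-Hochberg over all 21269 of them, with 0.05 as the threshold. The number of arrays limits the precision. On simulated data with 200 changed probe sets, the test for ablation plus estradiol against ablation recovered 24.2% of log2 changes of 0.5 and 82.7% of changes of 1, over 21269 probe sets. The simulated noise was independent between probe sets, while the arrays here varied along a shared component. In the data 1173 probe sets were called in this comparison. The recovered shares are therefore only a rough guide to these data. Correlations used deviations from the group means and permutation tests, 2-sided. Text names all members. From the pathway, spermatogonial, Gdnf control, niche and neural lists it names genes among the up to 4 called per comparison with the smallest adjusted p. Not every such gene is named. It also names the tested Gdnf family genes, which were not called, and Prm1, Tnp1, Greb1, Insl3 and Fshr. By r it names the 5 genes nearest to Ret and to Gfra1 and the nearest gene of each other member. No called genes were picked from the lists of Sertoli, peritubular, Leydig, macrophage and endothelial cells. The members, lists, motifs and tests were chosen with earlier results of these data known. Alternatives covered filters, scaling, variance moderation, array weights, low values, the replicate number, left-out arrays, the sham descriptions and other probe sets.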

Additional observations from a re-analysis of the deposited data

How the results depend on the processing

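Of 249 alternative values for the members and their counts of calls, with the fits leaving out 1 array set aside, 227 were classed as the same. For a tested member this meant the same direction and side of the threshold. For Gdnf it meant a difference within the spread of its values, and for a count a close number. With a filter at the 60th percentile 1, 0 and 1 members were called for ablation against sham, ablation plus estradiol against ablation and ablation plus estradiol against sham, since Ret was then not tested. Counts of called members in this section only show how calls move with a setting. They are not set beside the share of all probe sets called under the same setting, and nothing is read from them. Against the irradiated-described sham arrays alone, ablation against sham gave 1 called member, Gfra1 at 0.35 (not called) and Bcl6b at 0.24. Array weights made Etv5 a call, at 0.28 for ablation against sham and 0.40 for ablation plus estradiol against sham, and so did quantile normalization, at 0.39 for the last. Without arrays rich in spermatid genes Ret was 0.94 for ablation plus estradiol against ablation, and 0 members were called. Bcl6b for ablation plus estradiol against sham turned to -0.0084 with array weights, -0.0012 without those arrays and -0.022 with only the control-described sham arrays, and Lhx1 to 0.014 with values raised to the filter level. Other probe sets gave, for ablation against sham, 0.033 for Bcl6b, 0.49 for Etv5 (called) and 0.28 for Gfra1 (not called), for ablation plus estradiol against ablation, -0.40 for Etv5, and for ablation plus estradiol against sham, -0.36 for Bcl6b and 0.70 for Gfra1 (not called). The causes were not tested.

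Same-numbered arrays correlated over 0.1 in 0 of 11 pairs of ablation and sham and in 0 of 6 pairs of ablation plus estradiol and ablation. Of the pairs of ablation plus estradiol and sham, 3 of 6 did so, with a highest r of 0.38. No differently numbered pairs were set beside these, so whether replicate numbers pair the samples is not settled. The replicate block turned Lhx1 to -0.039 for ablation plus estradiol against ablation and changed no other call of a member, and the called probe sets came to 2747 against 4128, 596 against 1173 and 2022 against 3093. Without arrays rich in spermatid genes they came to 1474 for ablation against sham and 432 for ablation plus estradiol against ablation, and with only the irradiated-described sham arrays to 2345 and 1702 in the comparisons with sham. Leaving out 1 array at a time, Etv5 ranged from 0.22 to 0.32 for ablation against sham and 0.29 to 0.41 for ablation plus estradiol against sham. For ablation plus estradiol against ablation Ret ranged from 0.70 to 0.89, with 0 to 1 called members, Bcl6b from -0.017 to 0.29 and Lhx1 from -0.12 to 0.40 (-0.058 without estradiol array 3). Bcl6b ranged from -0.070 to 0.23 for ablation plus estradiol against sham. Gdnf exceeded the filter level in 1 and Lhx1 in 7 of 31 arrays, so their differences rest on low signals.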
